A study of Mus musculus with 21 samples.

Results

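The genes described here encode the subunits of potassium, calcium and sodium channels in the embryonic mouse pancreas. They were taken by symbol: symbols that begin with Kcn, the alpha, beta and gamma subunit genes of voltage-gated calcium channels (Cacna, Cacnb and Cacng), and the alpha and beta subunit genes of voltage-gated sodium channels (Scn, a number, and a or b). A gene was included where the platform annotation gave its probe set that symbol alone, and of several probe sets the brightest on average was kept. This gave 125 genes of the 19296 with such a probe set, of which 122 are protein coding and 3 are long non-coding RNAs named after a channel gene (Kcnd3os, Kcnmb4os1 and Kcnmb4os2).

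The study measured gene expression on Affymetrix arrays in cells of the pancreas sorted by fluorescence for a Foxa2-Venus fusion protein (FVF), which tags the transcription factor Foxa2. All groups shared a mixed C57-Bl6/SV129/CD1 strain background, and the labels name no treatment. The embryonic days were E12.5 (3 FVF+ and 2 FVF- arrays), E13.5 (2 and 2), E14.5 (3 and 3) and E15.5 (3 and 3), or 21 arrays in all. The design text calls these biological replicates without saying how many embryos or litters each holds, so the p-values reflect only how far these samples scatter. Values are log2 signals after robust multi-array averaging (RMA), on which a difference of 1 is a 2-fold ratio. Each sort is a mix of cell types, and in such bulk samples fewer cells that express a gene and less RNA per cell cannot be told apart.

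Potassium channels set the resting voltage of a cell and return it to rest after excitation, while voltage-gated calcium and sodium channels open on depolarisation and carry current inwards. In the adult beta cell, glucose metabolism closes the ATP-sensitive potassium (KATP) channel, the cell depolarises, and calcium entry through voltage-gated channels triggers insulin release. Smooth muscle cells and pericytes carry KATP channels of other subunits and the L-type and T-type calcium channels that govern contraction. Foxa2 is a transcription factor of endoderm-derived epithelium, which in the pancreas gives rise to endocrine, acinar and duct cells, whereas mesenchyme, vessels, blood and nerves have other origins.

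The marker lists separated the sorts as labelled. All 6 epithelium, 8 endocrine and 6 acinar markers measured were higher in FVF+ cells. All 6 mesenchyme, 7 smooth muscle and pericyte, 6 endothelium and 5 red blood cell lineage markers were lower, as were 5 of 6 macrophage and mast cell markers and 5 of 7 neuron, glia and neural crest markers. The summed mesenchyme markers (log2 of the summed signal) lay between 14.61 and 15.47 in FVF- arrays and between 10.52 and 12.01 in FVF+ arrays, and the summed epithelium markers between 15.62 and 15.85 in FVF+ arrays and between 11.27 and 12.85 in FVF- arrays. Arrays correlated at 0.985 to 0.997 within a group and at 0.889 to 0.941 between the sorts. Array numbers in the labels rise with the day and some E13.5 arrays have letters instead; their meaning is not given, so if they follow the order of processing, that order and the day cannot be told apart. On 1 FVF+ array (E12.5 replicate 1) the mesenchyme sum was 12 against 10.83 and 10.52 on the other E12.5 arrays of that sort, and the red blood cell sum 12.07 against 10.13 and 9.81. On the FVF- array of E14.5 replicate 3 the epithelium sum was 12.85, the highest of that sort. Values of channel genes on these arrays are given below, and the part that such cells had in them was not tested.

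Channel genes gave dimmer signals than most genes. Only 42 of the 125 (33.6%) had a group mean above 8.77, the median of all values, against 59.1% of all genes, and their median mean signal was 7.71 against 8.83. A log2 difference of a dim probe set can understate the ratio of the transcripts. Averaged over the 4 days, 29 of the 125 channel genes were higher in FVF+ cells (23.2%) and 54 were lower (43.2%), while 42 were not called. Of all 19296 genes, 30.5% were called higher and 25.2% lower. The median difference of the channel genes was -0.07, against 0.03 for all genes. Among the 42 brighter channel genes, 11 were higher and 25 lower (26.2% and 59.5%, against 40.5% and 30.9% of all brighter genes), and among the 83 dimmer ones 18 were higher and 29 lower (21.7% and 34.9%, against 16% and 16.8%). A difference of at least 2-fold was reached by 9 of the genes called higher and by 16 of those called lower, against 5.14% and 6.7% of all genes. Calls throughout are limma tests over all genes at an adjusted p under 0.05, with differences given as FVF+ minus FVF- and ± the standard error (SE).

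**Figure D1:**
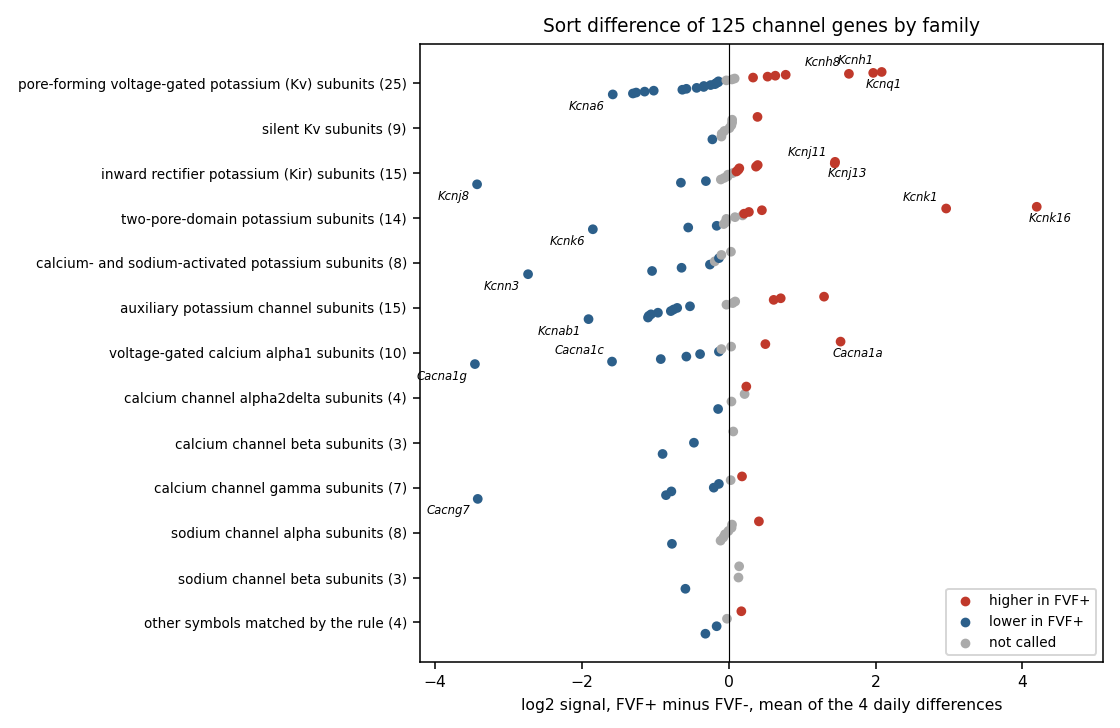
Each point is 1 channel gene, placed by its log2 signal difference between FVF+ and FVF- cells (mean of the 4 daily differences, horizontal axis) within its family (vertical axis, number of genes in parentheses), coloured by the call. Kcnk16 at 4.19 and Kcnk1 at 2.96 stand at the right, and Cacna1g, Kcnj8 and Cacng7 between -3.46 and -3.42 at the left.

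K2P channels, background potassium channels with a tandem pore domain, held the largest difference in favour of FVF+ cells, and members that were lower there. Of 14 members, 5 were higher, 3 lower and 6 not called. Kcnk16 (TALK-1), a channel known from islet beta cells, led all 125 genes. Its FVF+ signals were 12.37, 12.23 and 12.27 at E12.5, 12.43 and 12.19 at E13.5, 12.99, 13.54 and 12.90 at E14.5, and 12.64, 13.20 and 12.75 at E15.5. Its FVF- signals were 8.46 and 8.44, then 7.97 and 8.28, then 8.92, 8.08 and 8.68, and last 8.29, 9.26 and 8.53. Every FVF+ array lay above every FVF- array on each day, by a mean difference of 4.19 ± 0.13 (adjusted p 7.4e-15). Kcnk5 (TASK-2), its neighbour on chromosome 14, ran from 8.76 to 9.31 in FVF+ cells and from 8.48 to 9.29 in FVF- cells, so the sorts overlapped. Its difference of 0.19 ± 0.08 was not called (adjusted p 0.053) but passed the threshold in 12 of the other settings tried, 6 of which left out a single array, with values from 0.19 to 0.24.

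Kcnk16 led the genes higher in FVF+ cells, its neighbour Kcnk5 was not called, and the KATP pore gene Kcnj8 was among the genes lowest there relative to FVF- cells. The upstream sequences of these 3 genes are shown here as examples. Each is the 250 bases before the gene's start in RefSeq (build GRCm38.p6, all 3 on the minus strand), at chr14:20269270-20269519 for Kcnk16, chr14:20181783-20182032 for Kcnk5 and chr6:142571615-142571864 for Kcnj8. Capitals mark matches on either strand to the forkhead letters TGTTTAC or the variants TATTTAC or, with a changed end, TGTTTGC, bound by Foxa2 and its relatives, and to the E-box CAGATG, bound by Neurod1 and Ptf1a among others.

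Kcnk16: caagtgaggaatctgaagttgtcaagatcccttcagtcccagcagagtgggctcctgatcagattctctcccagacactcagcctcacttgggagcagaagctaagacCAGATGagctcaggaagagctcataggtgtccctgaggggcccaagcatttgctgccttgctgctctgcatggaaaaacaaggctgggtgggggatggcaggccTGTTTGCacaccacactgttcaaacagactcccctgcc

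Kcnk5: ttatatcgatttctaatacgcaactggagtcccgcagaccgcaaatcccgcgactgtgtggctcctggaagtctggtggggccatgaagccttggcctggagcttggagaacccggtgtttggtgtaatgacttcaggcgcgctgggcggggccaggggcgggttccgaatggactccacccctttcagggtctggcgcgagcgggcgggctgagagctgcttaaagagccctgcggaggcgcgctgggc

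Kcnj8: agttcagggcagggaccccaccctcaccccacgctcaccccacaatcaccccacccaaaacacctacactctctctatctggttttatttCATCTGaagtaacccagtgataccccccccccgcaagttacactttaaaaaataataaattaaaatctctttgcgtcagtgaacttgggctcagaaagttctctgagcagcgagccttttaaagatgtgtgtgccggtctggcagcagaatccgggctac

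The Kcnk16 window holds CAGATG 142 and TGTTTGC 38 bases before the start. The Kcnk5 window holds 0 of these motifs, and the Kcnj8 window holds CAGATG as its reverse complement, 160 bases before the start. Of 96 channel genes with a RefSeq promoter entry, TGTTTGC stood in 5 (5.21%, against 4.93% of 27025 promoters) and CAGATG in 15 (15.6% against 16.3%). TATTTAC stood in 1 (1.04% against 3.17%) and TGTTTAC in 0 (against 3.54%). The shares of TGTTTGC and CAGATG lay near those of all promoters and the other two below them, on counts of 1 and 0 genes, and a match describes the letters alone.

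Kcnk1 (TWIK-1), a K2P channel of many epithelia, had FVF+ signals between 11.34 and 11.58 on all 11 arrays and FVF- signals between 8.14 and 9.06 on all 10. The sorts did not overlap, and the mean difference was 2.96 ± 0.07 (adjusted p 1.2e-15). In FVF- cells its highest values, 9.06 and 8.87, stood on the arrays with the highest epithelium sums (E14.5 replicate 3 at 12.85 and E15.5 replicate 2 at 12.63). Kcnk10, Kcnk9 and Kcnk12 were higher by 0.45, 0.27 and 0.21 on the mean of the days, each called higher on 2 of the 4 days. At E13.5 Kcnk9 read 6.95 and 7.11 in FVF+ cells against 7.47 and 7.27 in FVF- cells. At E14.5 the sorts overlapped for Kcnk10. Kcnk6 (TWIK-2), reported in vascular smooth muscle, was lower by 1.85 on the log2 scale (-1.85 ± 0.08, adjusted p 3.8e-13), with FVF+ arrays between 7.63 and 8.55 and FVF- arrays between 9.42 and 10.39. Kcnk3 (TASK-1) and Kcnk18 were lower by smaller amounts, -0.55 and -0.16. Kcnk15 at -0.04 was not called.

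**Figure D2:**
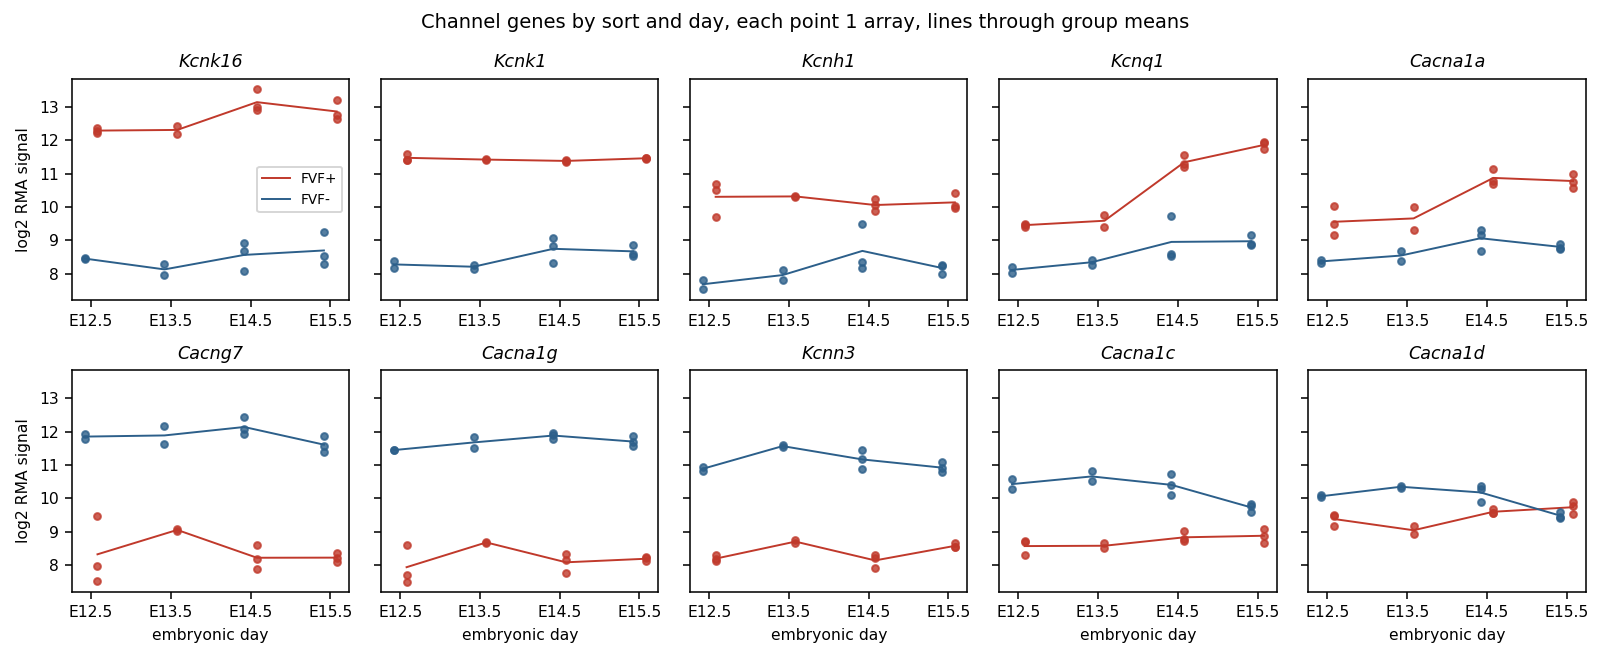
Log2 RMA signals (vertical axes) of 10 channel genes by embryonic day (horizontal axes), with each point 1 array and lines through the group means. Kcnk16, Kcnk1, Kcnh1, Kcnq1 and Cacna1a lie higher in FVF+ cells, Cacng7, Cacna1g, Kcnn3 and Cacna1c higher in FVF- cells, and the group means of Cacna1d cross between E14.5 and E15.5.

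Inward rectifiers, which pass potassium more readily into the cell than out, had 7 of 15 members higher, 3 lower and 5 not called. The 2 KATP channel types divided between the sorts together with their sulfonylurea receptors. Kcnj11 (Kir6.2), the pore of the beta cell KATP channel, had FVF+ signals of 9.73, 9.39 and 9.44 at E12.5, 9.72 and 9.44 at E13.5, 9.97, 10.54 and 10.04 at E14.5 and 10.15, 10.07 and 9.89 at E15.5. Its FVF- signals stayed between 8.06 and 8.67. The sorts did not overlap, and the mean difference was 1.44 ± 0.08 (adjusted p 8.1e-12). Abcc8 (SUR1), its receptor partner and direct neighbour on chromosome 7, was not chosen as a channel gene by symbol. It ran from 11.28 to 13.08 in FVF+ cells and from 8.24 to 10.08 in FVF- cells, a difference of 3.59 ± 0.17 (adjusted p 1.3e-12), with the 10.08 on the FVF- array of E14.5 replicate 3 and the next highest FVF- value at 9.0.

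Kcnj8 (Kir6.1), the pore of the vascular KATP channel, showed the reverse. Its FVF- signals were 12.15 and 11.75 at E12.5, 12.05 and 12.47 at E13.5, 12.53, 12.16 and 12.35 at E14.5 and 12.14, 12.34 and 12.16 at E15.5. In FVF+ cells it read 9.25, 8.20 and 7.91 at E12.5, 9.21 and 9.41 at E13.5, 8.88, 8.69 and 8.15 at E14.5 and 8.66, 8.88 and 8.61 at E15.5. Within E12.5 the highest FVF+ value was on replicate 1, the array with the high mesenchyme sum. The FVF+ arrays of E13.5, with mesenchyme sums of 11.97 and 12.01, were also high. On FVF+ E15.5 replicate 2, whose mesenchyme sum was likewise 12.01, Kcnj8 read 8.88. The mean difference was -3.43 ± 0.14 (adjusted p 1.7e-13). Abcc9 (SUR2), its receptor partner and neighbour on chromosome 6, was lower by the same order, -3.55 ± 0.16 (adjusted p 5.2e-13), with 9.06 on that E12.5 array against 7.85 and 7.35 on the others.

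**Figure D3:**
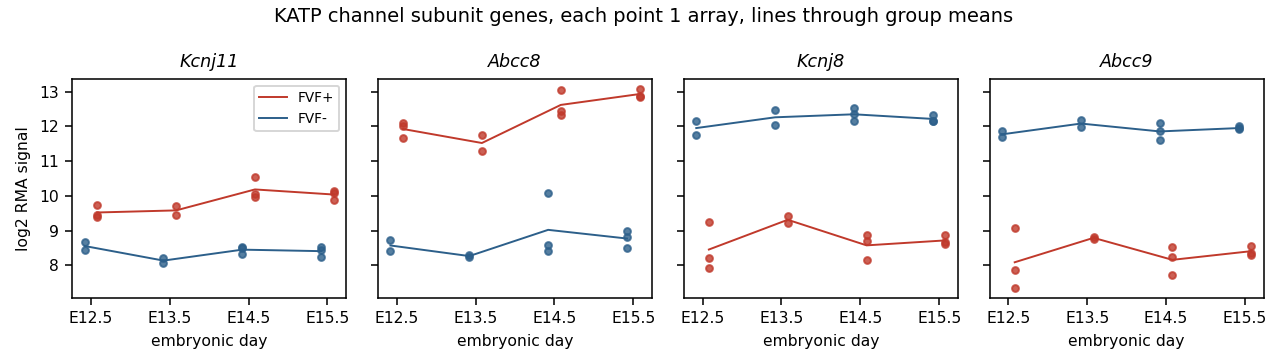
Log2 RMA signals (vertical axis) of the pore genes Kcnj11 and Kcnj8 and of their receptor genes Abcc8 and Abcc9 by embryonic day (horizontal axes), each point 1 array and lines through the group means. Kcnj11 and Abcc8 lie higher in FVF+ cells and Kcnj8 and Abcc9 in FVF- cells on each day.

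Kcnj13 (Kir7.1), a rectifier of transporting epithelia, was higher in FVF+ cells by 1.45 ± 0.08 (adjusted p 2.3e-11), with arrays between 7.75 and 8.75 against 6.48 and 7.05. Kcnj5 and Kcnj16 were higher by 0.39 and 0.37, and Kcnj10, Kcnj3 and Kcnj6 by 0.14, 0.13 and 0.10, so these last differences were small. Kcnj2 (Kir2.1) and Kcnj12 were lower, by -0.65 and -0.31. Kcnj14 at -0.01 and Kcnj15 at -0.11 were not called, the latter being called without FVF+ E14.5 replicate 2 (-0.12), FVF+ E15.5 replicate 1 (-0.12) or FVF- E12.5 replicate 1 (-0.15).

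Pore-forming Kv subunits, the voltage-gated potassium channels, had 7 of 25 members higher, 15 lower and 3 not called. Of the 7 higher genes 4 were of the ether-a-go-go class (Kcnh), whose ERG members pass repolarising current. Kcnh1 (EAG1) read 9.71, 10.52 and 10.68 at E12.5 and 9.97, 10.03 and 10.41 at E15.5 in FVF+ cells, against 7.55 and 7.81, and 8.24, 8.0 and 8.26, in FVF- cells. One FVF- array of E14.5 (replicate 3) reached 9.50, where its group's others read 8.18 and 8.36, and no FVF+ array lay below 9.71. The mean difference was 2.08 ± 0.15 (adjusted p 5.2e-10). Kcnh8 was higher by 1.64 ± 0.08 (adjusted p 2.6e-12), and its second probe set gave 1.18. Kcnh7 and Kcnh2, both ERG channels, were higher by 0.78 ± 0.10 (adjusted p 2.0e-06) and 0.63 ± 0.09 (adjusted p 8.1e-06). Kcnh3, Kcnh5 and Kcnh4 went the other way, by -0.44, -0.25 and -0.17.

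Kcnq1 (Kv7.1), an epithelial and cardiac channel, was higher by 1.97 ± 0.12 (adjusted p 5.1e-11), while Kcnq5 (Kv7.5), found in smooth muscle and neurons, was lower by 1.31 on the log2 scale (-1.31 ± 0.07, adjusted p 4.2e-12). The Shaker genes (Kcna) were lower in FVF+ cells in 7 of the 8 measured, and the eighth, Kcna7, at 0.04, was not called. Kcna6 was lowest at -1.58 ± 0.08 (adjusted p 3.2e-12), and Kcna5 (Kv1.5) differed by -1.15 ± 0.06 (adjusted p 9.2e-12). Kcna5, Kcna1 and Kcna6 lie next to one another on chromosome 6, and all 3 were lower. The A-type genes Kcnd1, Kcnd2 and Kcnd3 were also lower, led by Kcnd2 (Kv4.2) at -1.26 ± 0.08 (adjusted p 1.8e-10). Kcnb2 and Kcnc2 were higher by 0.33 and 0.53, and Kcnc1 at 0.08 and Kcnc4 at -0.03 were not called. The silent Kv subunits, which form channels only beside other Kv subunits, were mostly not called (7 of 9, Kcng1 at 0.05 and Kcng4 at 0.01 among them). Kcng3 was higher by 0.39 and Kcns3 lower by 0.22 on the log2 scale (-0.22).

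Calcium- and sodium-activated potassium channels had 0 of 8 members higher, 5 lower and 3 not called. Kcnn3 (SK3), a small-conductance calcium-activated channel of smooth muscle, endothelium and neurons, had FVF- signals between 10.79 and 11.60 and FVF+ signals between 7.90 and 8.75. The difference was -2.73 ± 0.07 (adjusted p 1.3e-15), with no overlap. Kcnt2, Kcnn2, Kcnn1 and Kcnt1 were lower by smaller amounts, from -1.05 to -0.13. Kcnma1, the BK channel pore, at -0.19, and Kcnn4 at -0.10 (-0.20 and called without E13.5) were not called. The Kcnma1 call was made in 9 other settings, with values from -0.24 to -0.20, whereas its second, dimmer probe set gave 0.28 and was called higher, so the direction of Kcnma1 is uncertain.

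Auxiliary potassium channel subunits, which change the gating or trafficking of a pore, had 3 of 15 members higher and 9 lower. Kcnmb1 and Kcnmb2, the BK beta1 and beta2 subunits, were higher by 1.30 ± 0.09 (adjusted p 6.7e-10) and 0.71 ± 0.06 (adjusted p 1.0e-08). Kcnmb4, a further BK beta subunit, went the other way and was called lower on all 4 days. Its FVF+ arrays lay between 7.69 and 8.07 and its FVF- arrays between 8.39 and 8.93. Kcne1, a partner of Kcnq1, was higher by 0.61. Kcnab1 (Kv beta1) led the lower genes at -1.91 ± 0.10 (adjusted p 9.2e-12), with Kcnab2 at -0.97. Kcne4, Kcne1l and Kcne3 were lower by similar amounts (-1.10, -1.09 and -1.06), and the Kv4 partners Kcnip1, Kcnip3 and Kcnip4 by -0.70, -0.53 and -0.75. Kcnip2 at 0.09 and Kcnab3 at -0.03 were not called. Of the 4 other symbols, Kcnrg was higher by 0.17, the RNAs Kcnd3os and Kcnmb4os2 were lower (-0.17 and -0.32) and Kcnmb4os1 at -0.02 was not called. These RNAs can overlap a channel gene, and the probe sets were not checked for strand here.

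Calcium channel alpha1 subunits, which form the pore, had 2 of 10 members higher, 6 lower and 2 not called. Cacna1a, the P/Q-type channel of neurons and beta cells, had FVF+ signals of 9.48, 10.02 and 9.16 at E12.5, 10.01 and 9.30 at E13.5, 10.78, 11.14 and 10.69 at E14.5 and 11, 10.57 and 10.76 at E15.5. Its FVF- signals lay between 8.32 and 9.32, so the sorts overlapped across days but not within a day. The mean difference was 1.52 ± 0.12 (adjusted p 1.4e-09). Cacna1i, a T-type channel, was higher by 0.50. Cacna1g, another T-type channel, was lowest in FVF+ cells relative to FVF- cells of all 125 genes: FVF- arrays ran from 11.44 to 11.97 and FVF+ arrays from 7.50 to 8.70, a difference of -3.46 ± 0.11 (adjusted p 1.1e-14). Within FVF+ cells of E12.5 it read 8.61 on replicate 1, the array with the high mesenchyme sum, against 7.70 and 7.50. Cacna1h, also T-type, overlapped between the sorts (-0.10 ± 0.08, not called, adjusted p 0.33).

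Of the L-type pores, Cacna1c (Cav1.2) was lower on each day, with a mean difference of -1.59 ± 0.09 (adjusted p 9.3e-12). Cacna1d (Cav1.3) was lower on the mean of the days, -0.58 ± 0.07 (adjusted p 7.3e-07), or -0.34 without E13.5. Its daily differences were -0.68, -1.30 and -0.58 at E12.5, E13.5 and E14.5, all called, and 0.25 ± 0.13 at E15.5, not called (adjusted p 0.12). Cacna1b (N-type) and Cacna1e (R-type) were lower by -0.93 and -0.39, Cacna1s by -0.13, and Cacna1f at 0.03 was not called.

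The auxiliary subunits of calcium channels were lower or not called with 2 exceptions. Among the gamma subunits, 1 was higher and 5 of 7 were lower. Cacng7, which also escorts glutamate receptors in neurons, had FVF- signals between 11.40 and 12.43. Its FVF+ signals were 9.48, 7.96 and 7.53 at E12.5, 9.03 and 9.08 at E13.5, and between 7.87 and 8.60 afterwards, with the highest on the E12.5 array of the high mesenchyme sum. The mean difference was -3.42 ± 0.18 (adjusted p 7.1e-12). Its neighbour Cacng8 on chromosome 7 was lower by 0.78 on the log2 scale (-0.78), and Cacng4 by -0.86, while Cacng5 was higher by 0.18. Cacng2 at 0.03 was not called. Of the beta subunits, Cacnb1 and Cacnb4 were lower (-0.90 and -0.47) and Cacnb2 at 0.06 was not called. Of the alpha2delta subunits, Cacna2d4 was higher (0.24), Cacna2d2 lower (-0.15), and Cacna2d1 (0.22 ± 0.14) and Cacna2d3 (0.04) were not called. Cacna2d1 was called at 0.34 without the FVF+ array of E13.5 replicate 2.

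Of 8 sodium channel alpha subunits, which form the pore, 1 was higher, 1 lower and 6 not called. Scn9a (Nav1.7), which mouse beta cells express, was higher by 0.41 ± 0.09 (adjusted p 6.8e-04), with daily differences from 0.25 to 0.62 of which E14.5 alone was called. Scn7a, an atypical sodium sensor of glia, was lower (-0.77 ± 0.09, adjusted p 5.9e-07). Scn3a (Nav1.3), the other sodium channel of mouse islets, had a mean difference near 0 that hid opposite days: -0.57 ± 0.16 at E13.5, then 0.38 ± 0.13 at E14.5 and 0.44 ± 0.13 at E15.5, all called. The E13.5 value rests on 2 arrays a sort, with FVF- signals of 6.83 and 6.35 and FVF+ signals of 6.17 and 5.86, and its call was lost without FVF- replicate 1 (-0.33), without FVF+ replicate 2 (-0.42), with a term for letter-coded arrays (-0.34) and with only the groups compared (-0.57). The E14.5 call was lost without FVF- replicate 1 (0.32) or 3 (0.37) or FVF+ replicate 1 (0.35), and the E15.5 call without FVF+ replicate 1 (0.32). Scn8a at 0.04 was not called. Scn2a is uncertain: its brightest probe set gave -0.07 and was not called, but 13 further probe sets with this symbol gave -1.42 to -0.10, all called lower, and their mean gave -0.57. Of the beta subunits, Scn3b was lower (-0.59 ± 0.08, adjusted p 6.5e-06), and Scn4b (0.14) and Scn2b (0.13) were not called. Scn4b was called in 8 other settings, with values from 0.16 to 0.19.

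Neighbouring channel genes did not always move together. Neighbours were taken as protein-coding genes whose starts follow one another in the reference annotation, and overlap of the genes was not checked. Of 20 such pairs, 8 differed in the same direction, 4 in opposite directions, 5 had 1 gene called, and in 3 neither was. The 2 KATP pairs, added to the channel genes, are among the 8. Neighbouring pairs over all genes were not counted, so these counts cannot show whether channel genes differ from others. The opposite pairs were Kcnip1 and Kcnmb1, Cacng4 and Cacng5, Kcnj16 and Kcnj2, and Scn9a and Scn7a. Kcnip1 and Kcnmb1, with successive starts on chromosome 11, differed by -0.70 and 1.30.

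Day by day, channel genes called lower outnumbered those called higher at each of the 4 days. At E12.5, 14 were higher and 44 lower (11.2% and 35.2%, against 17.2% and 18.7% of all genes). At E13.5, with 2 arrays a group, the counts were 16 and 33 (12.8% and 26.4%, against 15.8% and 15.2%). They were 23 and 45 at E14.5 (18.4% and 36%, against 23.1% and 21.5%). For E15.5 they were 29 and 35 (23.2% and 28%, against 24.4% and 19.5%). At E15.5, 10 of the 42 brighter channel genes were higher and 22 lower (23.8% and 52.4%, against 30.5% and 25.8% of all brighter genes). Of the 83 dimmer ones 19 were higher and 13 lower (22.9% and 15.7%, against 15.6% and 10.4%). The dimmer split was 21 and 13 after quantile normalization of the deposited values (25.3% and 15.7%, against 16.3% and 11.2%). After cyclic loess it was 16 and 17 (19.3% and 20.5%, against 12.3% and 12.8%). The median difference of all 125 as deposited was 0.09. Kcnk16 led the higher genes on each day (3.84, 4.18, 4.58 and 4.17), followed by Kcnk1 on the first 3 days (3.20, 3.21 and 2.64) and at E15.5 by Kcnq1 (2.89) before Kcnk1 (2.79). Kcnh1 came next at E12.5 and E13.5 (2.62 and 2.36) and Kcnq1 at E14.5 (2.39). The lowest were Cacna1g and Kcnj8 on each day, with Cacng7 on 3 days and Kcnn3 at E13.5 (-2.87). On all 4 days 11 genes were called higher (8.80%, against 9.22% of all genes) and 23 lower (18.4% against 10.6%). Opposite calls on different days were made for 2 genes, Scn3a and Cacna2d2, which is 1.60% against 2.02% of all genes, and 34 genes were called on no day.

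From E12.5 to E15.5, many channel genes rose in FVF+ cells. Of the 125, 62 rose (49.6%) and 8 fell (6.40%), against 27.6% and 19.3% of all genes, and the median change was 0.30 against 0.09. The E12.5 and E15.5 arrays did not overlap for 69 rising and 9 falling channel genes, where 34.7% and 22.6% of all genes were so separated. Most rises were small, and 5 genes rose at least 2-fold, against 2.13% of all genes. The count depended on the normalization: after quantile normalization of the deposited values 36 rose and 12 fell, and after cyclic loess 37 and 12. The difference lay in the dimmer probe sets. Of the 42 brighter channel genes, 20 rose as deposited (47.6%, against 23.4% of all brighter genes), 18 after quantile normalization (42.9% against 25.4%) and 20 after cyclic loess (47.6% against 26.2%). Of the 83 dimmer ones, 42 rose as deposited (50.6% against 33.6%), but 18 (21.7% against 11.1%) and 17 (20.5% against 9.96%) in the other settings. All dim genes had a median change of 0.17 as deposited, and of 0.03 and 0.02 in those settings.

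**Figure D4:**
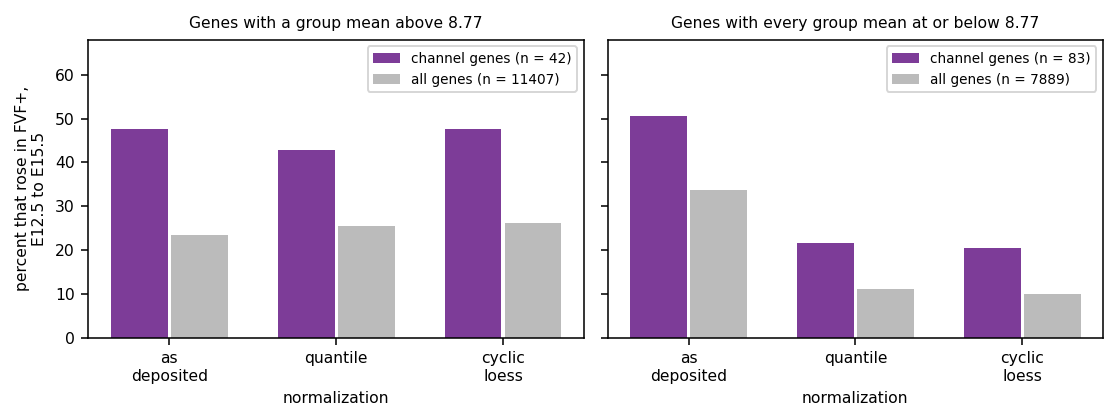
Bars give the percent of genes that rose in FVF+ cells from E12.5 to E15.5 (vertical axis, from 0) under 3 normalizations (horizontal axis), for channel genes and all genes, split by whether any group mean lay above 8.77, the median of all values. The brighter channel genes stay between 42.9% and 47.6%, while the dimmer ones drop from 50.6% to 21.7% and 20.5%.

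Kcnq1 rose furthest in FVF+ cells, from 9.41, 9.50 and 9.45 at E12.5 to 11.91, 11.94 and 11.73 at E15.5. Its E13.5 arrays read 9.76 and 9.41 and its E14.5 arrays 11.28, 11.55 and 11.19, so the step lay between E13.5 and E14.5. The change was 2.41 ± 0.22 (adjusted p 3.2e-07). Kcnq1 also rose in FVF- cells, by 0.86 ± 0.24 (adjusted p 0.018), from 8.02 and 8.20 to 8.87, 9.16 and 8.88. Over these days the epithelium sum of the FVF- arrays went from between 11.27 and 11.38 to between 12.18 and 12.63, and at E14.5 Kcnq1 read 9.74 on replicate 3, the FVF- array with the highest epithelium sum, against 8.58 and 8.53. The part of such cells in the FVF- rise was not tested. That smaller rise was lost without either FVF- array of E12.5 (0.77 without replicate 1 and 0.95 without replicate 2) or without E15.5 replicate 2 (0.76). The changes differed between the sorts by 1.55 ± 0.33 (adjusted p 3.6e-03).

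The BK channel genes took different courses in FVF+ cells. Kcnmb2 read 7.35, 7.16 and 7.42 at E12.5 and 8.65, 8.53 and 8.79 at E15.5, a rise of 1.35 ± 0.11 (adjusted p 1.4e-07). The pore gene Kcnma1 rose by 1.29 ± 0.15 (adjusted p 6.4e-06), or by 0.82 as the mean of its 2 probe sets. Kcnmb1, by contrast, fell from 9.18, 8.51 and 8.28 to 7.78, 8.05 and 7.92, after 8.83, 9.15 and 9.02 at E14.5. The fall was -0.74 ± 0.17 (adjusted p 2.4e-03), and -0.48 without the FVF+ array of E12.5 replicate 1, which held the 9.18.

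Other excitability genes rose in FVF+ cells as well. Cacna1a rose by 1.22 ± 0.21 (adjusted p 2.4e-04), Kcnk9 (TASK-3) by 1.20 ± 0.19 (adjusted p 8.7e-05) and Kcnh3 by 0.84 ± 0.13 (adjusted p 7.3e-05). Scn3a went from 5.93, 5.98 and 5.93 to 7.02, 6.50 and 6.82, a rise of 0.83 ± 0.13 (adjusted p 9.8e-05). Kcnj11 rose by 0.52 ± 0.14 (adjusted p 6.9e-03), and its partner Abcc8 by 1.01. The Kcnk16 change of 0.57 ± 0.24 was not called (adjusted p 0.055), but was in 10 other settings, where it lay between 0.54 and 0.69. Cacna2d1 rose by 0.73 ± 0.26 (adjusted p 0.029) on wide spread. That call was lost without FVF+ E12.5 replicate 1 (0.65) or 3 (0.58), without FVF+ E15.5 replicate 1 (0.72) or 3 (0.55), and as the mean of its 2 probe sets (0.41). Cacna1d rose by 0.35 ± 0.13 (adjusted p 0.030), which was lost without FVF+ E12.5 replicate 3 (0.25) or FVF+ E15.5 replicate 1 (0.27) or 3 (0.33). The changes of Cacna1c (0.31) and Scn9a (0.22) were not called in FVF+ cells, and Scn9a was at 0.42 without FVF+ E12.5 replicate 2.

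By family, and beside 27.6% of all genes rising and 19.3% falling, Kir subunits had 8 of 15 members rising, silent Kv subunits 6 of 9, K2P channels 7 of 14, alpha1 calcium subunits 5 of 10 and alpha2delta subunits all 4. None of these families but K2P, with 1, had a falling member. Pore-forming Kv subunits had 12 rising and 3 falling of 25, calcium- and sodium-activated channels 5 and 1 of 8, and auxiliary potassium subunits 5 and 2 of 15. Of the sodium channel alpha subunits, 3 of 8 rose and none fell. Some of these counts depended on the normalization. Of the Kir subunits, 13 of which were among the dimmer genes, 2 rose after quantile normalization and 2 after cyclic loess. Of the silent Kv subunits, 8 of them dimmer, 2 and 1 rose, and of the alpha2delta subunits 2 and 2. Of the pore-forming Kv subunits 8 rose in both settings, of the K2P channels 5 and 6, and of the alpha1 subunits 4 in both. Several marker sums also went up in FVF+ arrays without overlap between E12.5 and E15.5. The acinar sum went from between 15.11 and 15.23 to between 16.33 and 16.42, and 5 of the 6 acinar markers rose, with a median change of 3.5. The endocrine sum went from between 14.87 and 15.28 to between 15.96 and 15.97, the neuron, glia and neural crest sum from between 11.07 and 11.31 to between 12.10 and 12.18, the endothelium sum from between 10.11 and 10.45 to between 10.46 and 11.14, and the macrophage and mast cell sum from between 11.40 and 11.66 to between 11.90 and 12.10. These sums add signals, so bright genes weigh most. From E12.5 to E15.5 in FVF+ cells, Ret went from 9.63, 10.11 and 9.88 to 11.43, 11.49 and 11.36. Sox10 went from 8.66, 8.6 and 8.55 to 8.78, 8.79 and 8.66, and C1qa from 8.24, 7.9 and 8.09 to 9.64, 9.64 and 9.73. Of the neuron, glia and neural crest markers 3 of 7 were called rising, of the macrophage and mast cell markers 2 of 6, and of the endothelium markers 1 of 6. The part of such cells in the rises of channel genes was not tested.

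The falling genes in FVF+ cells were Kcnmb1 and 7 with smaller changes, and 5 genes fell without FVF+ E12.5 replicate 2 or without FVF+ E15.5 replicate 3. Kcnt2 and Kcne1 changed by -0.64 and -0.56, and Kcnk10 by -0.33 (-0.53 after quantile or cyclic loess normalization). Kcnh7 fell by 0.53 ± 0.18 (adjusted p 0.025), which was lost without FVF+ E12.5 replicate 2 (-0.45) or FVF+ E15.5 replicate 2 (-0.39) or 3 (-0.52). Kcnh8 fell by 0.46, lost without replicate 2 of FVF+ E12.5 (-0.35) or of FVF+ E15.5 (-0.30). Scn2b fell by 0.45, lost without FVF+ E12.5 replicate 3 (-0.26) or FVF+ E15.5 replicate 1 (-0.45) or 3 (-0.39). Kcnd1 at -0.28 lost its call without any 1 of 5 FVF+ arrays: E12.5 replicate 1 (-0.29) or 2 (-0.21), or E15.5 replicate 1 (-0.29), 2 (-0.29) or 3 (-0.28). It read -0.47 and -0.44 after quantile and cyclic loess normalization.

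In FVF- cells fewer channel genes changed. Of the 125, 18 rose and 6 fell (14.4% and 4.80%, against 10.7% and 9.70% of all genes), with a median change of 0.05. The split was 16 and 10 after quantile normalization and 14 and 8 after median centring. E12.5 has 2 FVF- arrays, and without replicate 1 of these 11 genes rose, while without replicate 2 11 rose and 3 fell. The arrays of E12.5 and E15.5 did not overlap for 36 rising and 22 falling channel genes, where 24.5% and 25.9% of all genes were so separated.

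Auxiliary subunits led the rises in FVF- cells. Kcne3, a regulator of Kv channels, went from 6.65 and 6.86 at E12.5 to 8.39, 8.15 and 9.25 at E15.5, a rise of 1.84 ± 0.24 (adjusted p 4.8e-05). Kcnip1, a partner of Kv4 pores, rose from 6.96 and 6.83 to 8.19, 8.27 and 8.19, by 1.32 ± 0.13 (adjusted p 2.9e-06), and the Kv4 pore gene Kcnd2 rose by 1.18 ± 0.17 (adjusted p 1.0e-04). The E12.5 and E15.5 arrays did not overlap for any of these 3 genes. The sodium channel genes Scn3b (7.60 and 7.52 to 8.68, 8.77 and 8.47) and Scn7a (5.94 and 5.80 to 6.74, 7.0 and 7.10) each rose by 1.08, with SE of 0.17 and 0.19 (adjusted p 2.5e-04 and 5.2e-04). Kcnk3 rose by 1.0 ± 0.15 (adjusted p 1.7e-04), from 9.96 and 10.03 to 10.96, 11.01 and 11.01. Kcnb2 rose by 0.78 ± 0.19 (adjusted p 8.4e-03), which was lost without FVF- E12.5 replicate 2 (0.73). Over the same days most marker sums of the FVF- arrays moved without overlap. The acinar sum went from between 12.09 and 12.27 to between 14 and 14.94, and the epithelium sum from between 11.27 and 11.38 to between 12.18 and 12.63. The macrophage and mast cell sum went from between 12.49 and 12.59 to between 13.84 and 14.10, the endothelium sum from between 12.69 and 13.01 to between 13.39 and 14.19, the mesenchyme sum from between 14.61 and 14.76 to between 15.33 and 15.39, and the smooth muscle and pericyte sum from between 13.94 and 14.01 to between 14.43 and 14.55. The neuron, glia and neural crest sum went from between 11.76 and 11.77 to between 12.14 and 12.40, and the red blood cell sum down from between 14.55 and 14.68 to between 12.65 and 13.47. Their part in these changes was not tested.

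The falls in FVF- cells were led by Kcnh7, which went from 8.16 and 8.25 at E12.5 through 7.83 and 8.36, then 6.84, 7.10 and 7.64, to 6.50, 6.51 and 6.69 at E15.5. The change was -1.64 ± 0.21 (adjusted p 2.7e-05). Of the 4 L-type pore genes, 2 fell. Cacna1c went from 10.29 and 10.57 to 9.59, 9.83 and 9.77, by -0.70 ± 0.18 (adjusted p 8.5e-03), and Cacna1d from 10.03 and 10.10 to 9.44, 9.60 and 9.41, by -0.58 ± 0.14 (adjusted p 7.0e-03). Both calls were lost without FVF- E12.5 replicate 2 (-0.56 and -0.55). The other two, Cacna1f (-0.02) and Cacna1s (-0.09), were not called. Scn8a fell by 0.55 ± 0.10 (adjusted p 9.3e-04). Kcnn2 changed by -0.61, lost without FVF- E12.5 replicate 1 (-0.49), and Kcnh5 by -0.42, lost without FVF- E12.5 replicate 1 (-0.38) or 2 (-0.46) or FVF- E15.5 replicate 1 (-0.35). The changes of Kcnj11 (-0.15), Kcnk16 (0.24), Cacna1a (0.44), Scn3a (0.12) and Scn9a (0.43) were not called in FVF- cells. Cacna1a and Scn9a were called at the same values when only the E12.5 and E15.5 FVF- groups were fitted, and Scn9a also without FVF+ E12.5 replicate 1 (0.43).

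**Figure D5:**
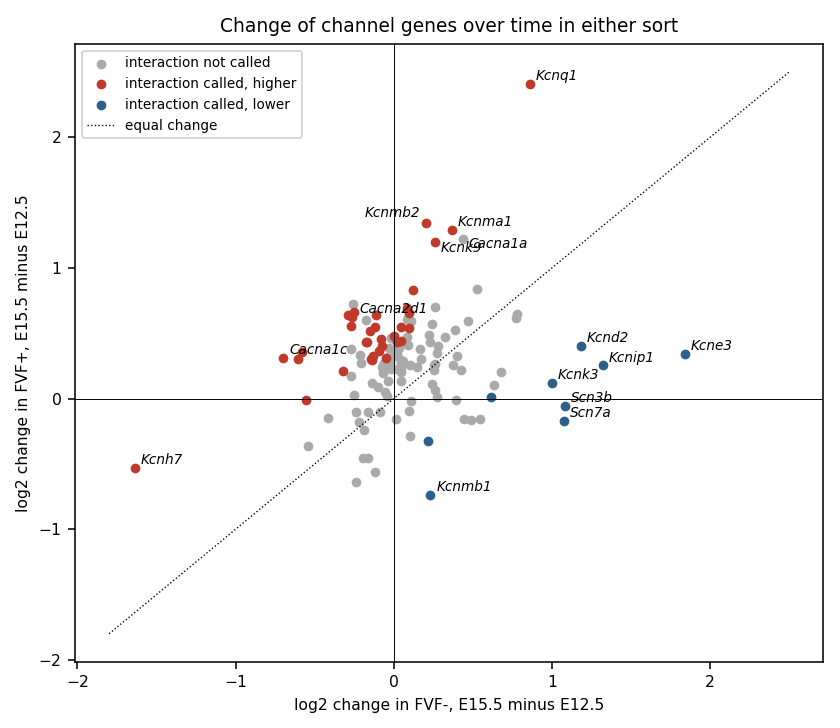
Each point is 1 channel gene, placed by its log2 change from E12.5 to E15.5 in FVF- cells (horizontal axis) and in FVF+ cells (vertical axis), coloured by whether the changes differed between the sorts, with a dotted line of equal change. Kcnq1 and Kcnmb2 lie highest, at 2.41 and 1.35 in FVF+ cells, Kcne3 furthest right at 1.84 and Kcnh7 furthest left at -1.64 in FVF- cells.

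The change over time differed between the sorts for 43 channel genes. It was higher in FVF+ cells for 34 (27.2%) and lower for 9 (7.20%), against 10.8% and 8.83% of all genes, and the median difference between the changes was 0.25 against 0.07. The split was 24 and 15 after quantile normalization and 14 and 15 after cyclic loess. Under the latter, higher channel genes thus did not outnumber lower ones. Of the 83 dimmer channel genes, 25 were called higher as deposited (30.1%, against 12% of all dimmer genes). After quantile normalization it was 14 (16.9% against 7.38%), and after cyclic loess 6 (7.23% against 4.44%). Of the 42 brighter channel genes, 9 were called higher as deposited (21.4%, against 9.94% of all brighter genes). In those settings it was 10 (23.8% against 13.8%) and 8 (19% against 8.97%). The count of higher genes was also 19 without FVF- E12.5 replicate 1, 12 without FVF- E12.5 replicate 2 and 22 without FVF- E15.5 replicate 3. The genes with the largest differences in either direction were Kcnq1, Kcnmb2, Kcnh7, Cacna1c and Kcnk9 on the higher side, and Kcne3, Scn7a, Scn3b, Kcnip1 and Kcnmb1 on the lower side, with values in the closing section. Cacna1c and Cacna1d fell in FVF- cells, and at E15.5 the sort difference of Cacna1c was -0.85 against -1.86 at E12.5. For Kcnk16 (0.33 ± 0.35, adjusted p 0.54) and Scn9a (-0.21 ± 0.25, adjusted p 0.59) the changes in the sorts were not shown to differ. The Cacna1a difference of 0.79 ± 0.32 was not called (adjusted p 0.091), but was with array weights (0.79), with only the groups compared (0.79), after quantile normalization (0.95) and without FVF+ E12.5 replicate 2 (1.02).

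Genes that act with these channels in the islet cell were looked up beside them. Of 24 listed genes of islet excitation and exocytosis, 21 were measured, and 15 were higher in FVF+ cells and 4 lower, with a median of 1.09. For this and the 2 lists that follow, the shares over all genes were 30.5% higher and 25.2% lower between the sorts, 27.6% rising and 19.3% falling in FVF+ cells, and 10.7% and 9.70% in FVF- cells. After Abcc8 the largest were the glucose transporter Slc2a2 (3.27) and the granule protein gene Rph3al (2.39). The lower genes were Abcc9, the ryanodine receptor Ryr2 (-0.93), Syt11 (-0.29) and Syt4 (-0.22), and Stx1a (0.01) and Rab3a (-0.12) were not called. From E12.5 to E15.5 in FVF+ cells 14 of the 21 rose and 2 fell, led by the calcium pump Atp2a3 (2.34), the granule tether Sytl4 (2.05) and Rab27a (1.91), with falls of Slc2a2 (-1.70) and Syt11 (-0.39). In FVF- cells 2 rose and 1 fell. Of 28 other cation and anion channel genes 26 were measured: 12 were higher, led by Clcn3 (1.66), the sodium leak channel subunit Unc80 (1.28) and Trpv6 (1.02), and 7 lower, led by Trpm5 (-2.38), Ano1 (-1.99) and the mechanosensitive channel gene Piezo2 (-1.78). In FVF+ cells 11 of these rose, with Unc80 (1.52), Scnn1b (1.08) and Unc79 (0.83) first, and Trpm7 (-1.10) and Scnn1a (-0.68) fell. In FVF- cells 10 rose and 0 fell. Of 11 scaffold and partner genes of potassium channels, 4 were higher (Akap9 0.97, Dpp6 0.74, Ank2 0.33 and Ank3 0.22) and 3 lower (Dlg4 -0.93, Lrrc55 -0.65 and Dpp10 -0.17). In FVF+ cells 2 of these rose, Lrrc26 (0.66) and Lrrc55 (0.43), and 5 fell, with Ank2 (-1.46), Akap9 (-0.85) and Dlg1 (-0.47) furthest.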

How the data were processed

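RNA of FVF+ and FVF- cells was purified, amplified and biotin-labelled for Affymetrix arrays with RNeasy Mini, Ambion WT Expression and Affymetrix WT kits, per the labels' protocols. The deposited values are log2 signals made by RMA with affy 1.44.0, per the submitters' processing notes; probe set definitions are not given in the sources used here. Array medians of the 23305 probe sets lay between 8.68 and 8.82. Of these, 20728 had 1 symbol in the platform annotation, 1174 had several and 1403 none. The number of arrays limits the precision.

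The highest-mean probe set per symbol left 19296 genes and 125 channel genes from 142 probe sets. Of the 125, 5 had several probe sets, and 2 probe sets with several channel symbols were not used. The 21 arrays were fitted together with limma 3.58.1 (R 4.3.3) on 8 group means, with 13 residual degrees of freedom, empirical Bayes moderation, two-sided p-values and Benjamini-Hochberg adjustment over all 19296 genes in each of 8 comparisons. The fit was tested on simulated data. Members, families and lists were chosen with earlier results of these data known. Named genes were the leading called genes of each comparison (up to 12 per direction for the mean sort difference, 8 for the changes, 5 for the interaction and 3 for a single day), up to 2 uncalled genes per family with the highest signal, a fixed set of islet channel genes, and up to 3 called per direction and 2 uncalled genes per list; further members are given with their values to account for the families, and were chosen after their values were seen. Motif matches were sought in RefSeq promoters (GRCm38.p6). Alternatives were quantile, cyclic loess and median centring of the deposited values, a filter on dim genes, array weights, trended robust moderation, fits of the compared groups alone, the mean of probe sets, a replicate block, a term for letter-coded arrays, E13.5 left out, and each array left out in turn.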

Additional observations from a re-analysis of the deposited data

Results flagged for a closer look

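The E15.5 minus E12.5 change differed between FVF+ and FVF- cells for 13 of the channel genes named by rule for this comparison. The test was the interaction test of limma over all genes. The values are the log2 change in FVF+ cells minus that in FVF- cells.

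Higher in FVF+ cells were Kcnq1 (1.55 ± 0.33 SE, adjusted p 3.6e-03), Kcnmb2 (1.14 ± 0.17, adjusted p 2.1e-04) and Kcnh7 (1.11 ± 0.28, adjusted p 9.8e-03). Kcnq1 rose in both sorts, Kcnmb2 in FVF+ cells, and Kcnh7 fell in both. The Kcnh7 call was lost without FVF- E12.5 replicate 2 (1.06).

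Cacna1c and Cacna1d, 2 of the 4 L-type pore genes, gave 1.01 ± 0.24 (adjusted p 6.9e-03) and 0.93 ± 0.19 (adjusted p 2.7e-03), and for Cacna1c the call was lost without FVF- E12.5 replicate 2 (0.87). Kcnk9 gave 0.94 ± 0.28 (adjusted p 0.026), lost after cyclic loess (0.75) and without FVF+ E12.5 replicate 3 (0.90), FVF+ E15.5 replicate 1 (0.72), FVF- E12.5 replicate 1 (0.95) or 2 (0.94) or FVF- E15.5 replicate 3 (0.80). Scn3a gave 0.71 ± 0.20 (adjusted p 0.018), lost after cyclic loess (0.56) and without FVF- E12.5 replicate 1 (0.69) or 2 (0.74). Kcnj11 gave 0.66 ± 0.21 (adjusted p 0.036), lost after cyclic loess (0.63) and without FVF+ E12.5 replicate 2 (0.60) or 3 (0.62), FVF+ E15.5 replicate 1 (0.61) or 2 (0.65), FVF- E12.5 replicate 2 (0.55), or FVF- E15.5 replicate 1 (0.59) or 2 (0.68).

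Lower in FVF+ cells were Kcne3 (-1.50 ± 0.33, adjusted p 4.4e-03), Scn7a (-1.25 ± 0.25, adjusted p 2.5e-03), Scn3b (-1.13 ± 0.23, adjusted p 2.7e-03) and Kcnip1 (-1.07 ± 0.18, adjusted p 5.8e-04), which all rose in FVF- cells, where no change was called in FVF+ cells. Kcnmb1 gave -0.97 ± 0.26 (adjusted p 0.014), lost without FVF- E12.5 replicate 2 (-0.89). The groups, of 2 or 3 arrays, were too small for a test of single arrays far from the others.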

How the results depend on the processing

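Of 130 results for named genes, 99 kept their side of the threshold in all settings tried. A call was lost in at least 1 setting by 18 and gained by 13. None changed direction between the main fit and a setting where either made a call. Some results called in no setting did change sign. The Kcnk16 change in FVF- cells ran from -0.04 to 0.445, and the Scn3a mean sort difference from -0.065 to 0.185. A filter that keeps genes with a group mean above the median of all values tests 42 of the 125 members, so its counts fall by construction: higher and lower were 12 and 25 for the mean sort difference, 8 and 25 at E12.5, 8 (higher) at E13.5, 12 and 23 at E14.5, 11 and 22 at E15.5, 20 and 2 for the change in FVF+ cells, 9 and 2 in FVF- cells, and 9 and 4 for the interaction. Quantile normalization gave 36 rises in FVF+ cells, 10 falls in FVF- cells and 15 lower interactions, and cyclic loess gave 37 rises in FVF+ cells and 14 higher and 15 lower interactions. Every other setting that kept all arrays, or left out E13.5 or 2 deviating E14.5 arrays (the last chosen after seeing the data), gave counts within 1.5 times of the reported ones. Whether same-numbered samples of the sorts form pairs could not be settled. The correlations of their deviations from the group means ranged from -0.37 to 0.49 and passed 0.1 in 3 of 10 pairs. With 2 or 3 arrays a group, the deviations within a group are tied to one another, so these values cannot exclude a pairing. With the replicate number as a block, 29 and 54 genes were higher and lower on the mean of the days, 62 rose and 8 fell in FVF+ cells, and Kcnk16 stayed at 4.19. Leaving out each array in turn gave higher and lower counts of 24 to 30 and 49 to 56 for the mean sort difference, 12 to 14 and 32 to 45 at E12.5, 12 to 17 and 28 to 33 at E13.5, 19 to 24 and 40 to 49 at E14.5, and 25 to 31 and 33 to 37 at E15.5. The changes gave 48 to 65 and 5 to 8 in FVF+ cells, 11 to 19 and 3 to 6 in FVF- cells, and 12 to 38 and 7 to 11 for the interaction. Dim signal limits what the arrays can show, since 83 members had every group mean at or below the median of all values. The cause of the differences between normalizations was not tested.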

Other observations

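Channel genes not named by rule for the difference between the changes also took different courses in the sorts. The following were chosen after their values were seen. The ERG channel gene Kcnh2 went in FVF+ cells from 10.40, 10.49 and 10.33 at E12.5 to 11.13, 11.03 and 11.05 at E15.5, and in FVF- cells from 10.33 and 10.17 to 10.05, 10.14 and 9.80. It rose in FVF+ cells by 0.66 ± 0.17 (adjusted p 4.2e-03), and the changes differed by 0.92 ± 0.25 (adjusted p 0.017), which was lost without FVF- E12.5 replicate 1 (0.84). The changes of the BK pore gene Kcnma1 differed by 0.93 ± 0.23 (adjusted p 9.9e-03), but by 0.60 as the mean of its 2 probe sets (adjusted p 3.3e-03), and the call was lost without FVF- E12.5 replicate 1 (0.74). Those of Kcnn2 differed by 0.91 ± 0.18 (adjusted p 2.0e-03), as it fell in FVF- cells. Kcnk3 stayed between 9.80 and 10.41 on all 11 FVF+ arrays while it rose in FVF- cells, a difference between the changes of -0.88 ± 0.21 (adjusted p 6.7e-03). For Kcnd2 that difference was -0.78 ± 0.23 (adjusted p 0.024), lost without FVF- E12.5 replicate 2 (-0.67), FVF- E15.5 replicate 3 (-0.75) or FVF+ E15.5 replicate 3 (-0.71). For the L-type pore gene Cacna1s it was 0.46 ± 0.13 (adjusted p 0.019), lost after quantile (0.31) and cyclic loess normalization (0.26) and without FVF- E12.5 replicate 2 (0.43) or FVF- E15.5 replicate 3 (0.39).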
